A study of Homo sapiens with 12 samples.

Results

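The response to wounding was measured in A549 monolayers that had first been heat shocked. A549 cells come from a human lung adenocarcinoma and are often used as a stand-in for alveolar epithelium. The comparison uses 6 of the 12 arrays of the series, chosen by their titles: 3 of monolayers heat shocked and then wounded, and 3 of monolayers heat shocked without wounding. Per the labels, the heat shock treatment lasted 2 h and the wounding 4 h, on uncoated plastic, with several wounds per monolayer. Both groups therefore carry the heat shock, and the treatment by which their labels differ is the wounding. The other 6 arrays, 3 of untreated control monolayers and 3 of monolayers that were wounded without heat shock, gave the wound response on its own. No label gives the time at which the heat shocked arrays without wounding were taken, so wounding and the added time after the heat shock cannot be told apart. Nor is it stated that replicates were grown separately, so p-values measure only the spread between these samples, which may be technical.

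An epithelial sheet that is scratched loses cell contacts and spreads over the gap. As background, mechanical injury switches on immediate early transcription factors through MAP kinases and SRF, followed by proteases that loosen the matrix, integrins that grip it, and growth factors that act on neighbouring cells. The heat shock response is a separate program, in which HSF1 raises chaperones that refold damaged proteins. The title of the series joins the pair through fibroblast growth factor 1 (FGF1), a secreted mitogen that binds all FGF receptors.

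Levels are log2 probe set values, so a difference of 1 is a 2-fold change. Each of 18132 genes was read through 1 probe set. Calls were made at a p under 0.05 after Benjamini-Hochberg adjustment. Array medians were 5.298 to 5.325, and arrays of a group correlated at 0.994 to 0.998. Array 2 of the heat shocked and wounded group (combined array 2 below) had the narrowest interquartile range, 3.98 against 4.13 to 4.24 on the other arrays, and the lowest correlations with its own group, 0.994 and 0.995. The counts of genes called in this comparison are therefore given with and without it, and a gene list's counts where they change with it. Background was not measured. The upper quartile of 22 leukocyte and endothelial marker genes in the heat shocked arrays, 4.86, serves as a guide to dim levels, and folds that start or end under it are approximate. Of 10 fibroblast markers 7 were under that level in both groups. None of the 32 leukocyte, endothelial and fibroblast markers was called, and 4 had an unadjusted p under 0.05. Of 11 alveolar type II markers 5 were above it in the heat shocked arrays (LPCAT1, ETV5, ABCA3, NAPSA and SFTPB), while the surfactant genes SFTPA1, SFTPA2 and SFTPD lay under it.

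Among the genes that rose with wounding after heat shock were the protease genes MMP1 and MMP10, the early factor genes EGR1 and FOS, the integrin gene ITGA2 and the growth factor gene FGF1. In all 779 genes were called, 4.3% of those tested, with 492 higher (2.71%) and 287 lower (1.58%). Of these, 62 rose and 3 fell by at least 2-fold. The median difference over all genes was 0.01, and 3164 genes had an unadjusted p under 0.05. The largest rise was that of ANGPTL4, which encodes a secreted inhibitor of lipoprotein lipase. It went from 7.80, 8.04 and 7.47 to 10.28, 10.77 and 10.63, by 2.79 ± 0.18 on the log2 scale (SE, n = 3 per group; 6.90-fold; adjusted p = 1.51e-05), and wounding alone raised it by 3.33. The largest falls were those of CAVIN2, a coat protein of caveolae, EDN2, which encodes endothelin 2, and the epithelial ETS factor gene EHF. For each of the 779 genes the 3 values of one group lay apart from the 3 of the other. The calls rest on these same values, so the lack of overlap adds no support to them. Its share over all genes is not given here.

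Combined array 2 weighed more on the lower genes than on the higher ones. Without it 498 genes were called, 362 higher (2% of those tested) and 136 lower (0.75%). Of the 492 higher genes 343 (69.7%) were called again in the same direction, and of the 287 lower genes 126 (43.9%). Of the 65 genes that changed by at least 2-fold, 64 were called again, and none of the 779 changed sign. The median difference of the higher genes from the heat shocked mean was 0.45, 0.57 and 0.53 on combined arrays 1, 2 and 3, and that of the lower genes was -0.35, -0.50 and -0.39. All 3 arrays thus moved the same way, array 2 furthest. It was the lowest of the 3 for 193 of the 287 lower genes (67.2%, against 36.1% of all genes) and the highest for 252 of the 492 higher genes (51.2%, against 38.9%). The lower count also rested on heat shocked arrays 1 and 2, with 170 and 135 lower genes when either was left out. Without heat shocked array 2 the total was 512.

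**Figure D1:**
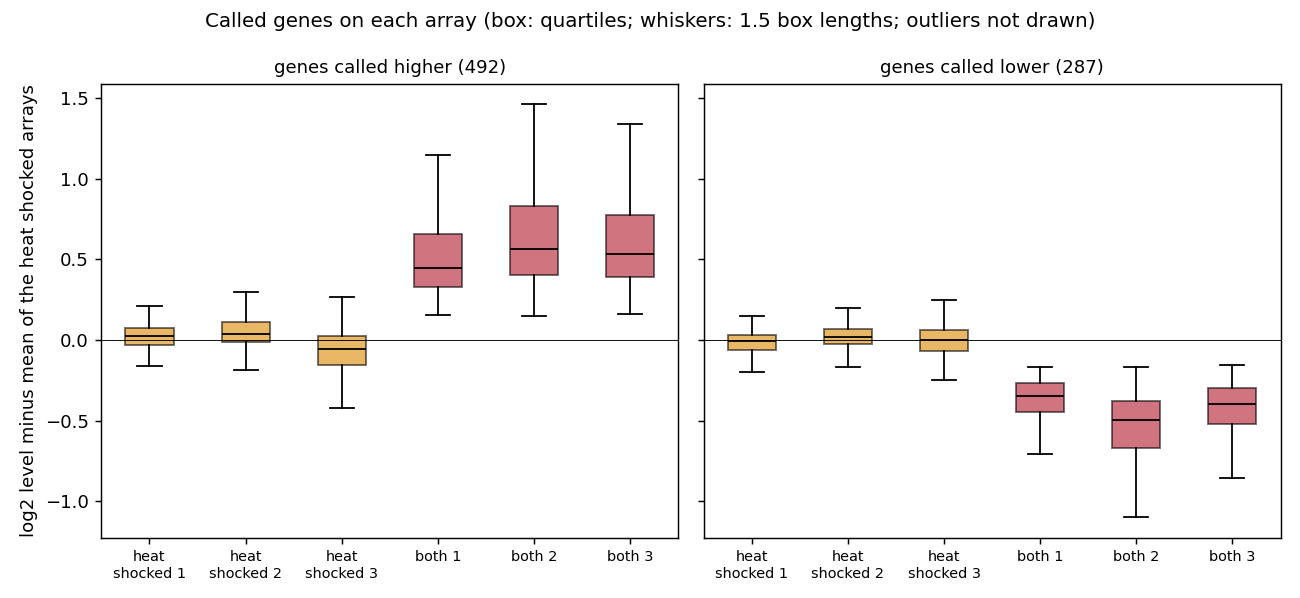
Differences of the called genes from the mean of the heat shocked arrays (log2, y axis) on each of the 6 arrays, for 492 genes called higher (left) and 287 called lower (right). Boxes span the quartiles, the line is the median and whiskers reach 1.5 box lengths; combined array 2 lies furthest from 0 in both panels, with medians of 0.57 and -0.50, and the genes were chosen by this same comparison.

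FGF1 was called in wounding after heat shock and not in wounding alone. Its level, taken from the FGF1 set with the largest average of all 12 arrays, was 3.67, 3.80 and 3.39 on the 3 heat shocked arrays and 5.28, 5.55 and 5.59 after heat shock and wounding. All combined values lay above all heat shocked ones, by 1.85 ± 0.12 on the log2 scale (SE, n = 3 per group; 3.62-fold; adjusted p = 1.51e-05). Without heat shock, wounding left FGF1 at 3.57, 3.72 and 3.45, against 3.25, 3.38 and 3.40 in control. That difference of 0.24 was not past the threshold (adjusted p = 0.42), and heat shock alone gave 0.28. The wound response was larger after heat shock by 1.62 ± 0.16 (SE; adjusted p = 0.00623). Of 18132 genes tested for such a difference, FGF1 alone passed (0.00552%), and 1302 (7.18%) had an unadjusted p under 0.05. FGF1 stood under the dim level of 4.86 in the other 3 groups, so its fold is approximate. The probe set used was the highest on average only through the combined arrays. In control, heat shocked and wounded monolayers it stood at means of 3.34, 3.62 and 3.58, below the 3.71, 3.86 and 3.96 of another FGF1 set. It was thus picked through the group in which it is high, and that other set gave a difference between the wound responses of 0.32, which did not pass.

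The array holds 4 FGF1 probe sets. All 4 were called higher in wounding after heat shock, by 1.85, 0.92, 0.84 and 0.58, and none in wounding alone. The difference between the wound responses had the same sign in all 4, at 1.62, 0.76, 0.70 and 0.32. With p-values adjusted over all single-symbol probe sets it passed for the set used alone (adjusted p = 0.0115, and 0.571 to 0.742 for the others). With a gene's probe sets averaged, FGF1 differed by 0.85 and did not pass (adjusted p = 0.137). It also missed the threshold when replicates 1 and 2 of each group, whose description codes both begin with S2, were averaged to leave 2 values per group (1.75, adjusted p = 0.0675).

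FGF2, which encodes basic FGF, was the other FGF gene to rise. It stood at 8.74, 8.90 and 8.59 on the heat shocked arrays and at 9.36, 9.39 and 9.49 on the combined ones. The groups did not overlap, and the rise was 0.67 ± 0.11 (1.59-fold; adjusted p = 0.00360). Read through its probe set with the largest interquartile range, FGF2 was not called (adjusted p = 0.144). In wounding alone FGF2 rose by 1.04 from a control level 1.01 lower than the heat shocked one, and its combined mean of 9.41 was the highest of the 4 groups. Of 22 FGF genes measured these 2 were called higher and none lower, and the other 20 lay under the dim level in both groups. Over all genes 2.71% were called higher and 1.58% lower. Among 9 FGF receptors and co-receptors 1 was lower: FGFR3, a receptor tyrosine kinase gene, fell by 0.52. With its probe sets averaged FGFR3 differed by -0.16 and did not pass (adjusted p = 0.31). Without combined array 2 KL, the gene of the co-receptor klotho, was called higher by 0.64 (adjusted p = 0.0126), beside the fall of FGFR3. FGFR1 differed by 0.10 (adjusted p = 0.42) and FGFR4 by -0.08. Of the MAP kinase feedback inhibitors, which damp FGF and EGF signalling, 3 of 16 rose (DUSP10 by 0.72, SPRY2 by 0.49 and SPRY4 by 0.34) and 1 fell (DUSP5, by 0.36), the last not without combined array 2. SPRY4 had a difference of -0.10 when read through the probe set with the largest interquartile range.

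**Figure D2:**
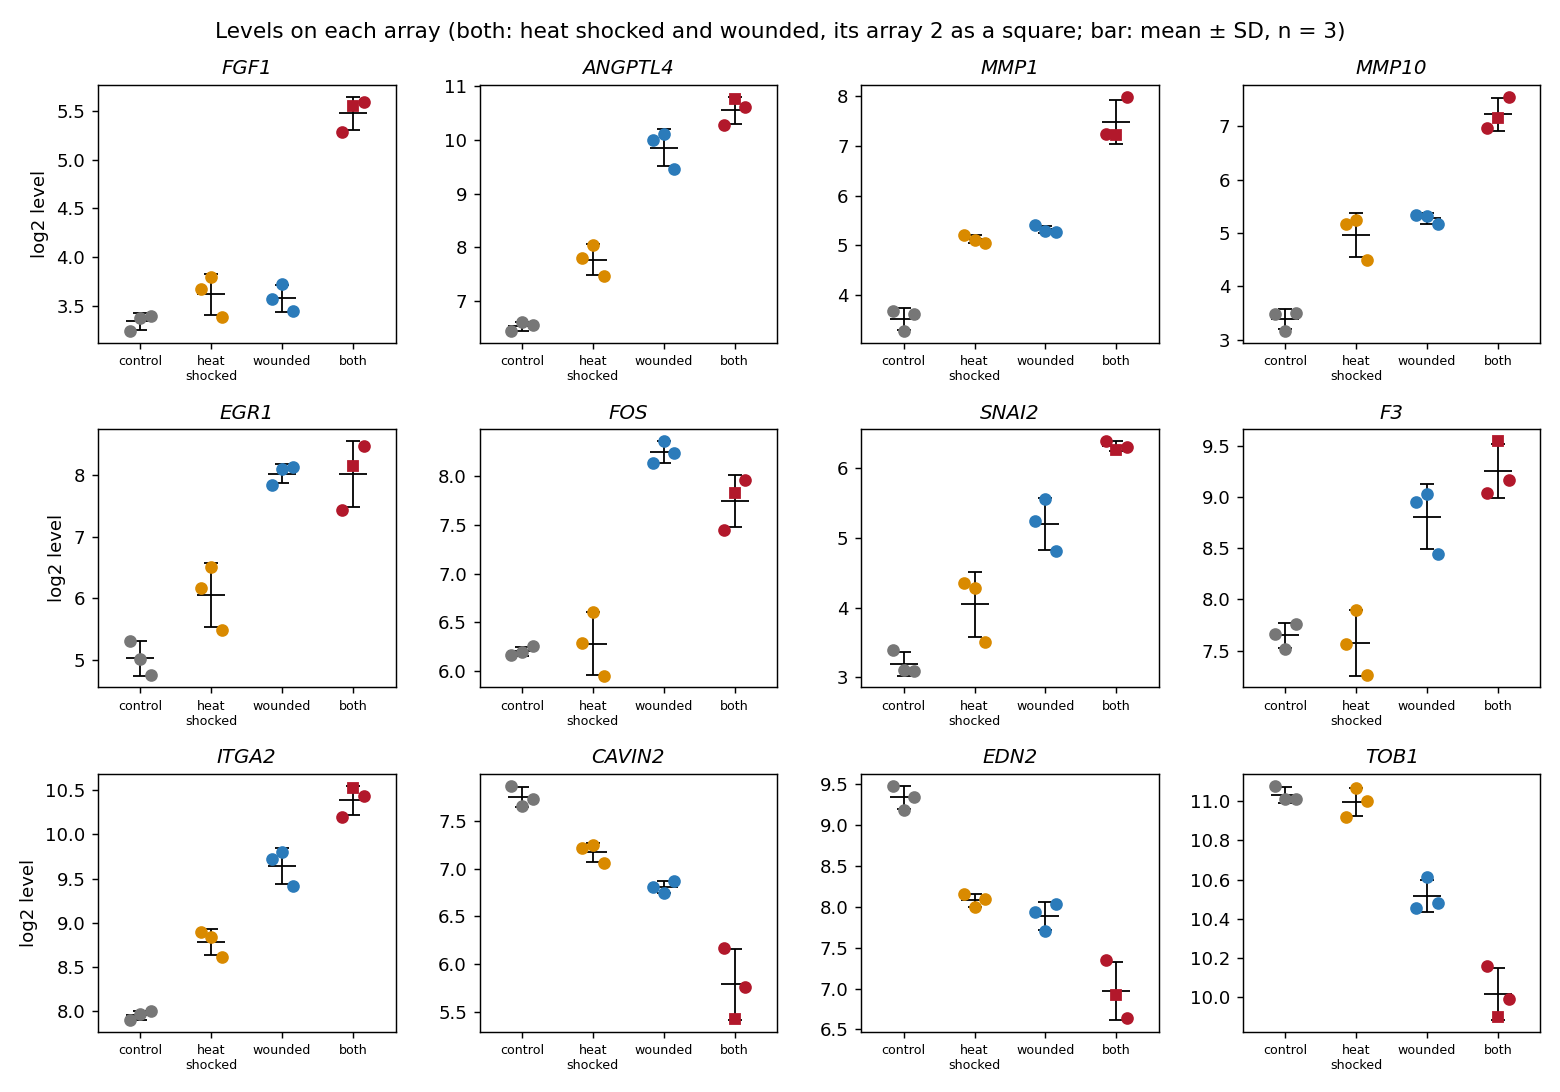
Log2 levels (y axis) of 12 genes on every array of the 4 groups (x axis), with the mean and SD of 3 arrays; the square is combined array 2. FGF1 lies between 3.25 and 3.80 in the other 3 groups and between 5.28 and 5.59 after heat shock and wounding, while EGR1 ends at means of 8.02 after wounding and 8.01 after both.

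Of 22 protease, plasminogen system and inhibitor genes 10 were called higher after heat shock and wounding and none lower, beside 2.71% higher among all genes, and their median difference was 0.30 beside 0.01. The 10 were the proteases and partners MMP1, MMP9, MMP10, PLAU, PLAUR and F3 and the inhibitors SERPINE2, TIMP1, TIMP2 and TIMP3. MMP1, the interstitial collagenase gene, stood at 5.22, 5.11 and 5.05 after heat shock and at 7.24, 7.22 and 8.0 after wounding was added. It rose by 2.36 ± 0.17 (5.12-fold; adjusted p = 3.24e-05), with combined array 3 the highest. MMP10, a stromelysin gene, went from 5.17, 5.24 and 4.49 to 6.96, 7.15 and 7.55, a rise of 2.25 ± 0.19 (4.77-fold). Both genes had risen with heat shock alone too, by 1.61 and 1.58, and with wounding alone, by 1.80 and 1.89. Their means in control were under the dim level, so these rises from control are approximate. F3, which encodes tissue factor, the cell surface starter of coagulation, went from 7.57, 7.90 and 7.26 to 9.05, 9.55 and 9.17. Its groups did not overlap, and the rise of 1.68 ± 0.18 was 3.21-fold, while heat shock alone gave -0.07.

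PLAU and PLAUR were the called genes of the urokinase system. PLAU, the urokinase gene, stood at 9.58, 9.55 and 9.46 and then at 10.15, 10.42 and 10.42, a rise of 0.80 ± 0.08. In wounding alone it differed by 0.28 (adjusted p = 0.0827), and the difference between the wound responses, 0.52 ± 0.11, did not pass (adjusted p = 0.319). PLAUR, its receptor, rose by 0.66, and the protease inhibitor gene SERPINE2 by 0.74. These 6 genes were called without combined array 2 too. The other 4, MMP9 and the inhibitors TIMP1, TIMP2 and TIMP3, were not, and MMP9 and TIMP3 lay under the dim level.

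The regions before the starts of 4 genes, FGF1, F3, PLAUR and the early factor gene EGR1, are shown because they carry short motifs of factors that respond to injury. The sequences are RefSeq's, build GRCh38.p14, the 250 bases before the start read 5′ to 3′ on the gene's strand. Capitals mark AP-1 motifs (TGAGTCA or TGACTCA) and TEAD motifs (GGAATG or CATTCC) in FGF1, F3 and PLAUR, and CArG boxes, which SRF binds, in EGR1. FGF1 has 4 starts in the table, and the start shown is the one with matches; its region holds 1 AP-1 and 2 TEAD motifs, and the other 3 hold none of the motifs searched.
FGF1, chr5:142644240-142644489, minus strand: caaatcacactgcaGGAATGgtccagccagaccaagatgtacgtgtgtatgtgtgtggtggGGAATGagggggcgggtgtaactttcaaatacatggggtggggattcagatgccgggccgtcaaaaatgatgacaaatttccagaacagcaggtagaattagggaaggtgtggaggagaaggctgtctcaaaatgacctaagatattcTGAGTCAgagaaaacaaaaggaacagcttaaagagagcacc
F3, chr1:94541760-94542009, minus strand: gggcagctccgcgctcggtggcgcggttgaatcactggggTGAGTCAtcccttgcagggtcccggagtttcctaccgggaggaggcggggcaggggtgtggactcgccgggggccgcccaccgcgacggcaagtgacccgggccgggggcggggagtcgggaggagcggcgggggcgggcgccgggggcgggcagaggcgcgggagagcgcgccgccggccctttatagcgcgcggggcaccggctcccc
PLAUR, chr19:43670170-43670419, minus strand: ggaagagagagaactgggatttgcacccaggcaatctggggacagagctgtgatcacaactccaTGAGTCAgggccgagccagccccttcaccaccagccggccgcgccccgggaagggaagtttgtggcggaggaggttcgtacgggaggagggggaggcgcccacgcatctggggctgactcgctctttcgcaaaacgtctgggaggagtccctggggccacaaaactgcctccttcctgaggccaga
EGR1, chr5:138465229-138465478, plus strand: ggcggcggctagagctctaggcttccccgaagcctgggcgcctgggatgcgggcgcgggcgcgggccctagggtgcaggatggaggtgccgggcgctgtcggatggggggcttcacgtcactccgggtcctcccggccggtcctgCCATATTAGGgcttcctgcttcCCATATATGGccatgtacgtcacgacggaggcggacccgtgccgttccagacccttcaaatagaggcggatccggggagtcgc
The 250 bases before the starts of MMP10 and FOS held no match. Motifs were counted on both strands of windows of 300 bases, which add the 50 bases after the start. An AP-1 motif stood in a window of 782 of 14425 tested genes with a window (5.42%). The share was 10.5% (41 of 391) for genes called higher, 6.64% (16 of 241) for genes called lower, and 21.3% (10 of 47) for genes that rose by at least 2-fold. Those 10 were FGF1, F3, SPHK1, KCNMA1, ODAPH, DHRS9, CLDN4, IL11, LAMB3 and AMPD3. TEAD motifs, the sites of the partners of YAP, stood in 15.5% of all genes, 19.7% of the higher and 19.1% of the lower ones. The heat shock element, 3 alternating inverted repeats of GAA with 2-base spacers, stood in 0.562% of all, 0.512% of the higher and 1.24% of the lower genes. A match is a description of the letters, not a site shown to be bound, and no test was made.

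EGR1 and FOS had the largest rises of the early response and AP-1 lists. EGR1, a zinc finger factor gene that MAP kinase signalling induces within minutes, stood at 6.17, 6.51 and 5.49 on the heat shocked arrays and at 7.43, 8.14 and 8.47 on the combined ones. It rose by 1.96 ± 0.27 (3.88-fold; adjusted p = 0.00122), against 2.99 in wounding alone. FOS, an AP-1 subunit gene, went from 6.29, 6.60 and 5.95 to 7.45, 7.83 and 7.96, a rise of 1.46 ± 0.15 (2.76-fold) against 2.04 in wounding alone. Neither difference between the wound responses passed: it was -1.03 ± 0.38 for EGR1 and -0.58 ± 0.22 for FOS, each with an adjusted p of 0.625. EGR1 started 1.03 higher in heat shocked than in control monolayers and ended at the same mean level, 8.01 after both treatments and 8.02 after wounding.

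Of 10 AP-1 genes 4 rose and 1 fell (median 0.19), beside 2.71% higher and 1.58% lower among all genes. JUN went from 9.20, 9.30 and 8.77 to 9.96, 10.31 and 10.23, a rise of 1.08 ± 0.13. JUNB rose by 0.96 and ATF3 by 0.76, while FOSL2 fell by 0.32, a call that was lost without combined array 2. Of 21 EGR, NR4A, KLF and other early genes 8 rose and 1, NR4A1, fell, with a median of 0.21. KLF6, a zinc finger factor gene, rose by 1.08, KLF2 by 0.94, BHLHE40, a repressor linked to the clock, by 0.74 and IER3 by 0.68. Without combined array 2 the counts were 4 and 0 for AP-1 and 6 and 0 for the early genes.

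Of the integrin and matrix genes, ITGA2 had the largest rise. The counts of these lists stand beside 2.71% higher and 1.58% lower among all genes. ITGA2, the alpha2 subunit of a collagen receptor, stood at 8.90, 8.83 and 8.61 and then at 10.20, 10.53 and 10.43. Its rise of 1.61 ± 0.11 (3.05-fold; adjusted p = 2.88e-05) was close to the 1.70 of wounding alone (difference -0.09 ± 0.16). Of 15 integrin and adhesion receptor genes 3 rose, with ITGA5, the fibronectin receptor subunit, at 0.77 and the syndecan gene SDC4 at 0.45. ITGB8, the integrin subunit that helps release TGF-beta, fell by 0.91 from a level under the dim mark, but not without combined array 2 (adjusted p = 0.0575). Of 26 matrix and basement membrane genes 7 rose and 1 fell (median 0.13), or 4 and 0 without combined array 2. The laminin chain gene LAMB3 rose by 1.01, the basement membrane collagen gene COL4A1 by 0.69, and the hyaluronan synthase genes HAS2 and HAS3 by 0.63 and 0.44. These 4 were also called without combined array 2, and the fall of LAMB1, by 0.37, was not (adjusted p = 0.0575).

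SNAI2 and SNAI1, which encode the repressors Slug and Snail of epithelial junction genes, were the 2 of 12 mesenchymal transition genes that rose. Over all genes 2.71% rose and 1.58% fell. SNAI2 went from 4.35, 4.29 and 3.51 to 6.38, 6.25 and 6.30, a rise of 2.26 ± 0.21 (4.80-fold, approximate since it started under the dim level). SNAI1 stood at 5.81, 6.0 and 6.09 and then at 6.58, 6.95 and 6.48, a rise of 0.70 ± 0.13. In wounding alone SNAI1 differed by -0.03, and the difference between the wound responses, 0.73 ± 0.19, did not pass (adjusted p = 0.502). Their best known target CDH1, the E-cadherin gene, differed by -0.18 and the filament gene VIM by 0.16, neither past the threshold (adjusted p = 0.196 and 0.202). Among 13 tight junction genes CLDN4 rose by 1.13, and CLDN1 fell from 10.82, 10.99 and 10.68 to 10.29, 10.22 and 10.17, by 0.61 ± 0.08.

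Cytoskeletal and YAP target genes were called in both directions, beside 2.71% higher and 1.58% lower among all genes. Of 29 actin, small GTPase and focal adhesion genes 5 rose and 1 fell, with a median of 0.05. Without combined array 2 the counts were 4 and 0. KANK4, a scaffold gene of focal adhesions, rose by 1.89 ± 0.32 from under the dim level, RRAD, a small GTPase gene, by 1.36 and the paxillin gene PXN by 0.55. RRAD stood at 8.13, 8.52 and 7.16 and then 9.41, 9.66 and 8.82, and was not called without combined array 2 (adjusted p = 0.0863). Of 20 YAP and TAZ genes 3 rose and 2 fell, or 3 and 1 without combined array 2. The matricellular target genes CCN1 and CCN2 rose by 0.97 and 1.03, NT5E, the ecto-5′-nucleotidase gene, rose by 0.52, and AJUBA, a LIM protein gene of the Hippo pathway, fell from 9.74, 9.76 and 9.74 to 9.06, 8.64 and 8.69, by 0.95 ± 0.11. The median of this list, -0.07, was near that of all genes.

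TGF-beta, activin and BMP genes moved in both directions, beside 2.71% higher and 1.58% lower among all genes. Of 32 measured 9 rose and 7 fell (median 0.08), and 9 and 5 did without combined array 2. Among the ligands BMP2 rose by 1.12 ± 0.12, from 5.81, 5.88 and 5.57 to 6.93, 6.93 and 6.74, and INHBA, the activin A subunit gene, by 0.93, while BMP4 fell by 0.55 and the activin B subunit gene INHBB by 0.67. Among the receptors TGFBR1 rose by 0.70, while TGFBR2 fell by 0.43 and the co-receptor gene TGFBR3 by 0.77. FST, which encodes an activin trap, rose by 0.64. ID2, a BMP target gene whose product blocks bHLH factors, fell from 10.63, 10.76 and 10.54 to 9.90, 9.66 and 9.88. Its fall of 0.83 ± 0.09 equalled that of wounding alone, 0.83.

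Some other ligand genes rose as well, beside 2.71% higher and 1.58% lower among all genes. Of 22 cytokine and chemokine genes 3 rose and 1 fell, or 3 and 0 without combined array 2. IL11, an IL-6 family cytokine gene, rose by 1.10 ± 0.13, from 9.07, 9.16 and 8.80 to 10.03, 10.38 and 9.92, CCL2, a monocyte chemoattractant gene, by 1.13 and LIF by 0.59. CXCL8, the interleukin 8 gene, was 0.53 higher and did not pass (adjusted p = 0.177). Among 14 genes of the EGF receptor family, the ligand genes HBEGF and TGFA rose by 0.74 and 0.58, and the receptor gene ERBB3 fell by 0.46, the last not without combined array 2. HBEGF stood at 7.05, 7.19 and 6.77 and then at 7.59, 7.84 and 7.79, while wounding alone gave 0.20 (difference 0.54 ± 0.17, adjusted p = 0.608). Of 15 VEGF and PDGF genes VEGFA (0.70), PDGFB (0.60) and PDGFA (0.50) rose, and PDGFA alone of these 3 was called without combined array 2. GAL, the galanin neuropeptide gene, rose by 1.88 ± 0.18 (3.68-fold).

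**Figure D3:**
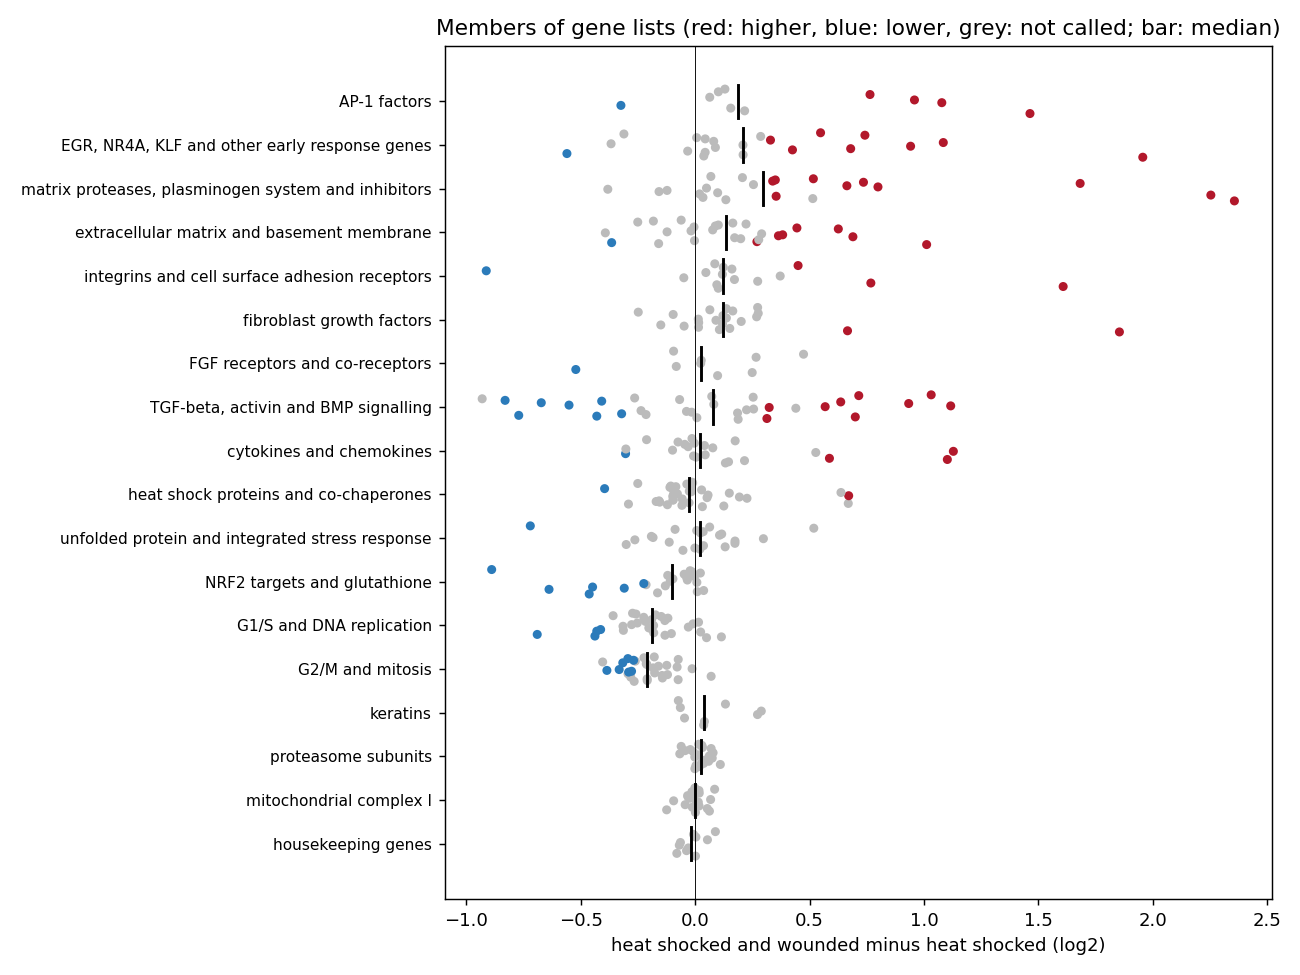
Differences between heat shocked and wounded and heat shocked monolayers (log2, x axis) for the members of 18 gene lists, each point a gene and each bar the median. Matrix protease genes reach 2.36 with a median of 0.30, the points of the heat shock list centre on -0.03, and those of the G2/M list on -0.21.

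Of 39 heat shock proteins and co-chaperones 1 rose and 1 fell when wounding was added to heat shock. Among all genes 2.71% rose and 1.58% fell, so the list was called about as often as genes in general. In the list 10 of 39 had an unadjusted p under 0.05, beside 17.4% of all genes. The median was -0.03, and 28 of the 39 had a difference below 0, against 46.4% of all genes. HSPA1B, an inducible HSP70 gene with near-identical paralogs, stood at 12.59, 12.58 and 12.42 after heat shock and at 12.64, 12.60 and 12.45 after both. It differed by 0.03 ± 0.20 (adjusted p = 0.962), and DNAJB1, its HSP40 partner, by 0.05 ± 0.16. Heat shock alone had raised them by 2.32 and 1.98. HSPA6, a strictly inducible HSP70 gene, went from 10.34, 10.48 and 9.46 to 10.92, 10.96 and 10.40, a difference of 0.67 ± 0.26 that did not pass (adjusted p = 0.192). Array 3 was the lowest of its group for HSPA6, HSPA1B and DNAJB1 in both groups. The gene that rose was DNAJB5, by 0.67, and the gene that fell was BAG2, by 0.40. HSF1 itself differed by -0.01 ± 0.08. None of the 4 heat shock factor genes and none of the 8 TRiC chaperonin subunit genes was called, with 1 and 0 at an unadjusted p under 0.05.

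Among NRF2 and its target genes 6 of 22 fell and none rose. NRF2, encoded by NFE2L2, is the main transcription factor of the antioxidant response. The median of the list was -0.10, beside 1.58% lower among all genes, and 5 fell without combined array 2. GCLC, which encodes the catalytic chain of glutamate-cysteine ligase, the first enzyme of glutathione synthesis, stood at 9.56, 9.56 and 9.71 and then at 8.93, 8.95 and 9.03. It fell by 0.64 ± 0.07 (adjusted p = 0.000407), against 0.22 in wounding alone (adjusted p = 0.188). Read through its probe set with the largest interquartile range, GCLC was not called (adjusted p = 0.136). The regulatory subunit gene GCLM fell by 0.31, the cystine transporter gene SLC7A11 by 0.45, NFE2L2 by 0.46, OSGIN1 by 0.89 and SRXN1 by 0.22. SLC7A11 was not called with its probe sets averaged. In wounding alone 1 of the 22 fell, but no difference between the wound responses passed for these genes: for GCLC it was -0.42 ± 0.11 and for GCLM -0.35 ± 0.09, both with an adjusted p of 0.469.

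Of 31 genes of G1/S and replication 4 fell (median -0.19), and of 30 genes of G2/M and mitosis 7 fell (median -0.21), with none higher in either list, beside 1.58% lower among all genes. In all 56 of the 61 had a difference below 0, against 46.4% of all genes. CDC25A, the phosphatase gene that opens S phase, went from 7.41, 7.54 and 7.52 to 6.98, 7.11 and 7.10, and the mitotic kinesin gene KIF20A from 8.05, 8.0 and 8.31 to 7.77, 7.61 and 7.82. Their falls were 0.43 ± 0.10 and 0.39 ± 0.08. Cyclin E2 (CCNE2) had the largest fall of the 61, 0.69 ± 0.17, with combined array 2 lowest at 5.27. Without that array none of the 61 was called by limma, while 55 were still below 0 and 33 had an unadjusted p under 0.05 (35 with it). Among all genes that share was 13.8% without the array and 17.4% with it. In these bulk samples fewer cycling cells and less RNA per cell cannot be told apart. TOB1, whose product restrains proliferation, fell as well, from 10.92, 11.07 and 11 to 10.16, 9.90 and 9.99, by 0.98 ± 0.08 (adjusted p = 5.54e-05). The CDK inhibitor gene CDKN1A rose by 0.40 at an adjusted p of 0.0497 and was not called without combined array 2.

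Falls were also measured for CAVIN2, EDN2, EHF and 2 Wnt feedback genes. Over all genes 2.71% were called higher and 1.58% lower. CAVIN2 went from 7.21, 7.25 and 7.06 to 6.18, 5.43 and 5.76, a fall of 1.39 ± 0.14 (adjusted p = 0.000168), and of 1.21 without combined array 2. It was the only 1 of 10 caveolin and cavin genes called. EDN2 went from 8.16, 7.99 and 8.09 to 7.35, 6.92 and 6.64, by 1.11 ± 0.15, while EDN1 and the converting enzyme gene ECE1 rose by 0.37 and 0.34. EHF fell by 1.03. Of 11 Wnt feedback genes 2 fell and none rose: LGR4, an R-spondin receptor gene, by 0.92 and ZNRF3, which encodes a ligase that removes Wnt receptors, by 0.67. Of 12 cyclic nucleotide phosphodiesterase genes PDE7B (0.77), PDE10A (0.40) and PDE4D (0.39) fell, with PDE10A not called without combined array 2. PKDCC, a secreted kinase gene, fell by 0.92.

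The remaining lists ranged from several calls to none, beside 4.3% of all genes called. MCL1, an antiapoptotic BCL2 family gene, rose from 11.20, 11.11 and 11.06 to 11.85, 11.93 and 11.82, and BCL2L1, which encodes the related BCL-XL, fell by 0.46. They were 2 of the 3 called among 20 BCL2 family and apoptosis genes. The metallothionein genes MT1X and MT2A rose by 0.49 and 0.39 among 9. Of 22 unfolded protein response genes 1 fell, VLDLR by 0.72. None of 24 proteasome, 20 complex I, 10 housekeeping, 23 splicing factor, 17 lipid synthesis, 14 interferon-induced and 8 keratin genes was called by limma, with 0, 0, 0, 6, 3, 2 and 1 at an unadjusted p under 0.05. Among all genes 17.4% had such an unadjusted p. GAPDH differed by 0.00 ± 0.05. Among 451 ZNF genes 5 rose and 2 fell (5 and 1 without combined array 2), both shares below those of all genes. Of 11 alveolar type II markers LPCAT1 rose by 0.31, and the summed level of the list was 55.4 to 56.1 in heat shocked and 56.6 to 58.6 in combined arrays. Those of alveolar type I markers, at 37.32 to 37.53 and 37.54 to 38.14, nearly touched but did not overlap either. Of these 7 type I genes 4 lay under the dim level in both groups, and 0 had an unadjusted p under 0.05. The sums of the other marker lists overlapped between the groups: they were 39.3 to 40.4 and 39.5 to 42.5 for endothelium, 51.1 to 52.6 and 51.3 to 53.1 for leukocytes, and 40.4 to 41.2 and 41.1 to 42.8 for fibroblasts. Their part in the results was not tested.

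Wounding alone, a comparison that uses none of the same arrays, gave an overlapping set of genes. It called 648 genes, 411 higher (2.27%) and 237 lower (1.31%). Of these 368 were also called after heat shock, all in the same direction (266 higher and 102 lower), which is 56.8% of the 648 and 47.2% of the 779. Of the 648 genes 627 had the same sign after heat shock, and of the 779 genes 724 had the same sign in wounding alone. Across the 18132 genes, which are not independent, the 2 sets of differences correlated at r = 0.59. Of the 62 genes that rose by at least 2-fold after heat shock, 55 were also called higher in wounding alone. The counts of wounding alone rested on single arrays: 353, 386 and 425 genes without control arrays 1, 2 and 3, and 324 and 306 without wounded arrays 1 and 2. The shared count was then 243, 262, 272, 225 and 222. Without combined array 2 it was 310, with 722 genes called in wounding alone, where that array enters only through the common spread.

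**Figure D4:**
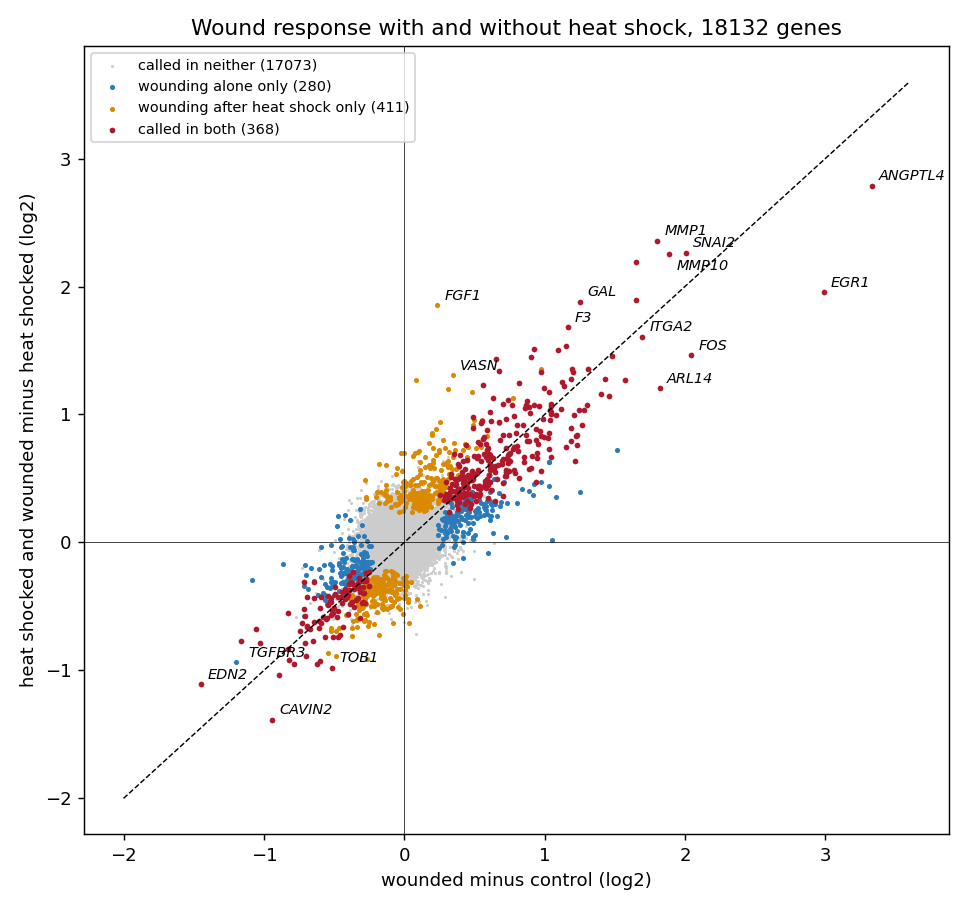
Difference between heat shocked and wounded and heat shocked monolayers (log2, y axis) against wounded minus control (log2, x axis), 1 point per gene, with the line of equal response dashed. The 368 genes called in both lie in the same quadrants near the line; FGF1 lies at 0.24 and 1.85, EGR1 and FOS below the line at 1.96 and 1.46.

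The sizes of the 2 responses were compared from both sides, because a list picked by size in one comparison tends to be smaller in the other. The genes called higher in wounding alone had a median difference of 0.55 there and 0.45 after heat shock, and the lower genes -0.42 and -0.30. The genes called higher after heat shock had a median of 0.51 there and 0.39 in wounding alone, and the lower ones -0.42 and -0.27. Each list was thus larger in the comparison that chose it. Of the 779 genes 411 were not called in wounding alone, and 190 of these had an unadjusted p of the difference under 0.05, beside 7.18% of all genes. The 411 were picked as called in one comparison and not in the other, which by itself favours a small p of the difference. The 190 genes are therefore not shown to respond only after heat shock, and FGF1 alone passed the test of the difference.

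The genes next to FGF1 in that test were read for their values. VASN, which encodes a TGF-beta binding membrane protein, stood at 5.67, 5.73 and 5.85 on the heat shocked arrays and at 6.92, 7.21 and 7.03 on the combined ones, a rise of 1.31 ± 0.11 (2.47-fold). In wounding alone it differed by 0.34, and the difference of 0.96 ± 0.16 did not pass (adjusted p = 0.281). Without control array 3 it did (adjusted p = 0.0341). SOX18, an HMG box factor gene, differed by 0.60 after heat shock and by -0.13 in wounding alone (difference 0.73 ± 0.12, adjusted p = 0.281), at levels near the dim mark. ITPRIPL1 and TAMALIN had differences of 0.62 and 0.63 (adjusted p = 0.315 for both).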

How the data were processed

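Total RNA of 12 A549 monolayers, 3 in each of 4 groups, was measured on Affymetrix PrimeView arrays. Per the submitters' processing notes, the authors used Affymetrix Expression Console and RMA, which corrects background, equalises the arrays' distributions and summarises probes into probe sets. No version is given in the sources used here. The range of the deposited values fits a log2 scale. Scanner files were not used, so no detection p was at hand and differences of dim probe sets may be compressed.

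Of 49293 probe sets 1 had a missing value and was left out. The platform annotation gave 44988 of them 1 gene symbol and 1832 several, and 2473 were not listed. Each of 18132 genes was read through its brightest single-symbol probe set, by the mean of all 12 arrays, and 11734 genes had more than 1. Of the called genes 585 had another probe set. For 250 another was called the same way and for 0 the opposite way.

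Groups came from the titles. All 12 arrays entered 1 limma model (version 3.58.1, R 4.3.3, with lmFit, contrasts.fit and eBayes) with a mean for each group and 8 residual degrees of freedom, so the 4 groups share 1 estimate of the spread. Contrasts were heat shocked and wounded minus heat shocked, wounded minus control, their difference, and heat shocked minus control (values only). Every adjusted p comes from limma with Benjamini-Hochberg adjustment over the genes tested. Values after ± are SE for differences. The model was checked on simulated data.

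Named genes were the 15 largest rises and 15 largest falls among called genes whose groups did not overlap, up to 5 called members of each of 46 lists, the 5 smallest p of the difference, the 10 largest changes of wounding alone, and a fixed set. The text gives part of these. LAMB1, NR4A1, MMP9, TIMP1, TIMP2, TIMP3, SRXN1 and some other called list members, and the genes with an AP-1 motif, fell outside the rule and were chosen after their values were seen. The members and lists were chosen with earlier results of these data known. Replicate numbers were not used to pair arrays. Alternatives were 3 other scalings, 2 filters on dim genes, 2 other choices of probe set, 7 other models, 2 other thresholds, and leaving out each array. The number of arrays limits the precision.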

Additional observations from a re-analysis of the deposited data

Results flagged for a closer look

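The wound response of FGF1 differed between monolayers with and without heat shock, by a test of that difference: it was larger after heat shock by 1.62 ± 0.16 on the log2 scale (SE; limma adjusted p = 0.00623). It was higher in 3 of 3 combined arrays than in any array of the other groups. The probe set used had the highest mean of the FGF1 sets only through the combined arrays, and the set that was higher in the other 3 groups gave a difference of 0.32, which did not pass (adjusted p = 0.742 over all single-symbol probe sets).

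Of the 4305 probe sets that the annotation gives several symbols or does not list, 94 were called in wounding after heat shock, 63 higher and 31 lower, which is 2.18% against 2.8% of the probe sets with 1 symbol.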

How the results depend on the processing

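The 779 genes called in wounding after heat shock (492 higher, 287 lower, 65 by at least 2-fold), the 648 of wounding alone, the 1 gene of the difference and the 368 shared calls (0 opposite) depended on the settings as follows. Leaving out 1 array at a time gave 498 to 790 called, 362 to 485 higher, 135 to 305 lower, 55 to 81 by at least 2-fold, 306 to 722 in wounding alone, 1 to 2 for the difference, 222 to 352 shared and 0 to 1 opposite. A fit of the 6 arrays alone gave 300 (237 higher, 63 lower), with fewer residual degrees of freedom. Averaging replicates 1 and 2 of each group, whose description codes both begin with S2, gave 333 (249 and 84), 224 in wounding alone, 157 shared and 0 for the difference. A 1.5-fold threshold gave 254 (201 and 53), 232 and 145 shared. An adjusted p under 0.01 gave 371 (274 and 97), 303 and 187. Lower genes numbered 500 among genes above the median level (42 by at least 2-fold, 0 for the difference, since FGF1 was filtered out), 452 above the dim level, 508 with the eBayes trend and 517 with trend and robust (2 for the difference in both). The mean of a gene's probe sets gave 0 for the difference. Array quality weights gave 1436 in wounding alone and 7 opposite calls. SPRY4 turned to -0.10 with the probe set of largest interquartile range. Causes other than those named were not tested. Deviations of same-numbered heat shocked and combined arrays from their group means correlated at 0.04, -0.16 and 0.03. With 3 arrays per group the deviations sum to 0, so these values cannot settle whether replicate numbers pair the arrays. With the start of the description code, S2 or S3, as a block 904 genes were called, 554 higher and 350 lower. With the replicate block 817 genes were called, 509 higher and 308 lower, with 1 opposite call. Of the named results of wounding after heat shock, 4068 comparisons with an alternative kept direction and side of the threshold, 398 lost the threshold, 21 gained it and 1 reversed. Dim levels limit the folds of genes such as FGF1, SNAI2, KANK4, ITGB8, MMP9 and TIMP3. Of the 62 genes that rose by at least 2-fold, 10 lay under the dim level in the heat shocked arrays.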
